A study of Mus musculus with 20 samples.

Results

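The metabolic nuclear receptors described here are the genes Ppara, Pparg, Nr1h3, Nr1i2, Nr1i3, Rxra, Hnf4a, Nr5a2, Esrra and Rora. These 10 genes were chosen by name, as ligand-binding transcription factors of liver metabolism, with earlier results of these data known. They were found through the gene symbols that a table of the array's annotation gives to each probe set, taking the brightest on average where a gene had several. In this way 9 of the 10 receptors had a probe set, of 19505 genes in all, and all 9 passed the filter that left 11844 genes to test. Esrra, the oestrogen-related receptor alpha, had no probe set in that table and was not analysed here. Liver RNA came from 20 male mice of the ob/ob strain, obese for want of leptin, with 1 array per mouse and 5 mice in each of 4 groups. The groups were PM2.5 (fine airborne particles, breathed in an exposure chamber for 6 hours per day), metformin (an antidiabetic drug, given in the drinking water), PM2.5 together with metformin (the combined group below) and filtered air. Livers were taken after 2 weeks. The obese genotype is shared by the controls, so no lean liver was measured. Metformin mice carry no label for the air they breathed, and they are taken here to have breathed no PM2.5. The dose of the drug, the particle concentration and the hour of collection are not given in the sources used here.

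Nuclear receptors bind small fat-soluble molecules and then switch genes on or off. PPARalpha (Ppara) is activated by fatty acids and drives their oxidation in the fasted liver, and PPARgamma (Pparg) favours fat storage and is raised in fatty livers of obese mice. LXRalpha (Nr1h3) senses oxysterols, PXR (Nr1i2) and CAR (Nr1i3) sense drugs and other foreign compounds, and all of these bind DNA with RXRalpha (Rxra) as partner. HNF4A (Hnf4a) keeps hepatocytes differentiated, LRH-1 (Nr5a2) acts in bile acid and cholesterol metabolism, and RORalpha (Rora) ties metabolism to the circadian clock.

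The values are log2 signals, so a difference of 1 is a doubling of signal. The words rise and fall are kept for genes to which limma, fitted to all 11844 genes and all 4 groups together, gave a Benjamini-Hochberg adjusted p under 0.05. Errors after ± are standard errors of a log2 difference, or SD where marked, with 5 mice per group. The lowest value of any receptor on any array was 9.76, and the 95th percentile of the negative-control probe sets averaged 8.36 over the arrays, so every receptor was read above background in every mouse. The labels do not say whether the mice shared cages, litters or processing days.

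Some arrays of the combined group stood apart. Correlations between arrays of 1 group ran from 0.9723 to 0.9931 in the combined group, from 0.9878 to 0.9932 in the PM2.5 group, from 0.9853 to 0.9924 in the metformin group and from 0.9893 to 0.994 in the filtered-air group. Combined mice 2 and 4 had the highest negative-control medians of all 20 arrays, at 4.79 and 4.69, against 4.36 to 4.43 in filtered-air mice. Combined mouse 5 had the lowest mean correlation to the other combined arrays, at 0.981, against 0.983 for mouse 2 and 0.985 for mouse 4, and the lowest array weight in limma, at 0.486, against 0.494 for mouse 2 and 0.559 for mouse 4. Results of the combined group are therefore given again without mice 2 and 4, or without mouse 5, where this ends a call, turns a direction or moves a value by over 1.5 times. Against filtered air, 21.5% of all genes tested were called without mice 2 and 4, and 36.6% without mouse 5.

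Livers differed in markers of non-parenchymal cells as well. The log2 of the summed signal of 11 Kupffer cell markers (12 listed), genes of the resident liver macrophages, lay between 14.34 and 15.18 in PM2.5 mice, between 13.48 and 13.98 in metformin mice and between 11.60 and 15.11 in combined mice, against 14.02 to 14.98 in filtered-air mice. Combined mouse 5 had the sum of 15.11, while the other 4 combined mice lay between 11.60 and 13.35. Of these 11 markers, 6 fell and none rose in the combined group against filtered air, where 16.2% of all genes tested fell. None passed in the PM2.5 group, where 5.17% of all genes changed, or in the metformin group, where 3.15% did. For 8 endothelial markers the sums were 14.55 to 14.95 in PM2.5 and 14.16 to 14.77 in metformin mice. They were 12.94 to 14.54 in combined mice, against 14.44 to 14.86 in filtered-air mice. Of the 8, 1 rose with PM2.5, where 2.67% of all genes rose, and 1 fell with metformin, where 1.89% fell. In the combined group 2 fell against filtered air, where 16.2% of all genes fell. There 3 of the 8 differences were above 0, with a median of -0.19. The brightest genes weigh most in these sums. Fcgr2b averaged 13.50 over all arrays, against 12.18 for Clec4g, the next brightest, and 4.68 for Stab1. The sums of 7 hepatocyte markers, albumin and others, lay between 20.96 and 21.14 over all 20 livers. Single hepatocyte markers averaged from 17.44 (Cps1) to 18.90 (Alb), where the highest value on any array was 19.03. In bulk tissue, fewer cells of a type and less RNA per cell cannot be told apart.

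**Figure D1:**
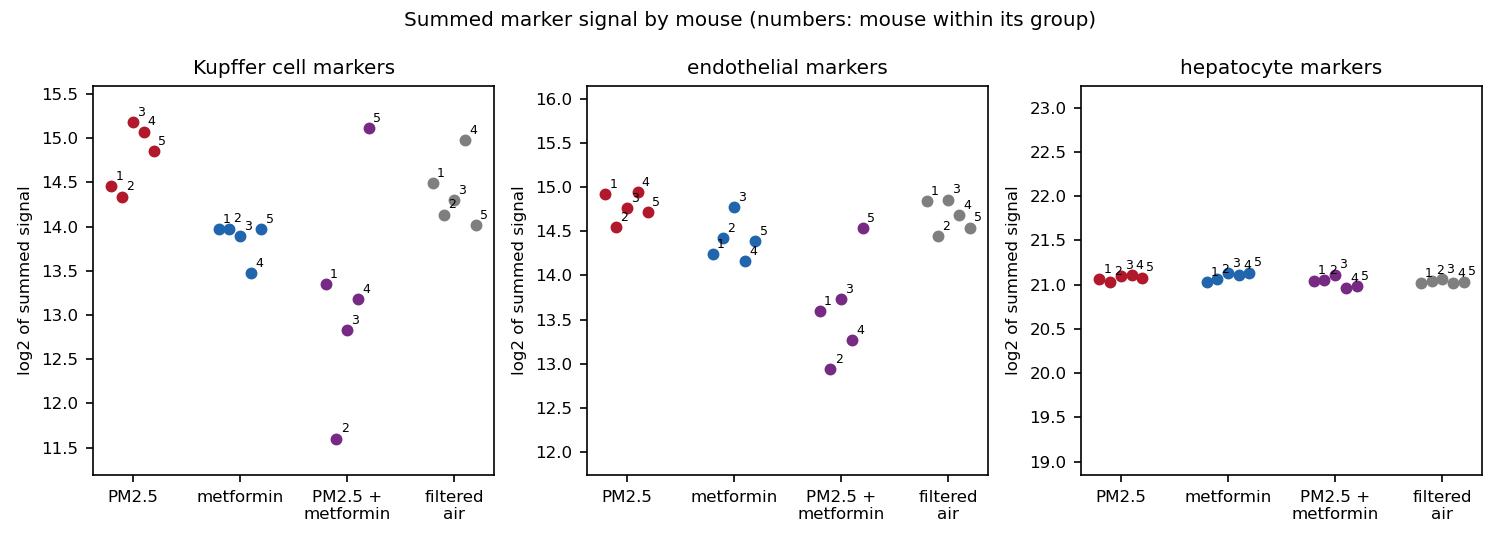
Summed signal of Kupffer cell, endothelial and hepatocyte markers on a log2 axis, 1 point per mouse, with the number of the mouse within its group; the 3 panels span the same number of log2 units. Kupffer cell sums of combined mice 1 to 4 lay between 11.60 and 13.35 and that of mouse 5 at 15.11, while hepatocyte sums lay between 20.96 and 21.14 in all mice.

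The foreign-compound receptors CAR and PXR were the members that rose in each treated group. In the PM2.5 group 2 of the 9 receptors, Nr1i2 and Nr1i3, rose and none fell, where 5.17% of all genes tested changed. In the metformin group 4 rose, these and Ppara and Rxra, and none fell, where 3.15% of all genes changed. The combined group had 6 receptors higher and 1, Pparg, lower than filtered air, where 34.9% of all genes changed. Leaving out combined mice 2 and 4 gave 4 higher and 1 lower, with 21.5% of all genes called. The median difference over the 9 receptors was 0.45 for PM2.5, 0.40 for metformin and 0.59 for the combined group, against 0.02, 0.00 and 0.01 over all genes tested. The receptors were chosen with earlier results of these data known, so their counts and medians are descriptions. These 3 comparisons share the same 5 filtered-air mice, so their agreement is not independent. All 15 treated mice lay above all 5 filtered-air mice for Nr1i2 and for Nr1i3, as for 0.616% of all genes tested, and Nr1i2 and Nr1i3 passed the test as higher in each of the 3 comparisons, as did 0.49% of all genes. A test for any difference among the 4 groups passed for 7 receptors, all but Nr1h3 and Rora, with 32.1% of all genes passing.

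**Figure D2:**
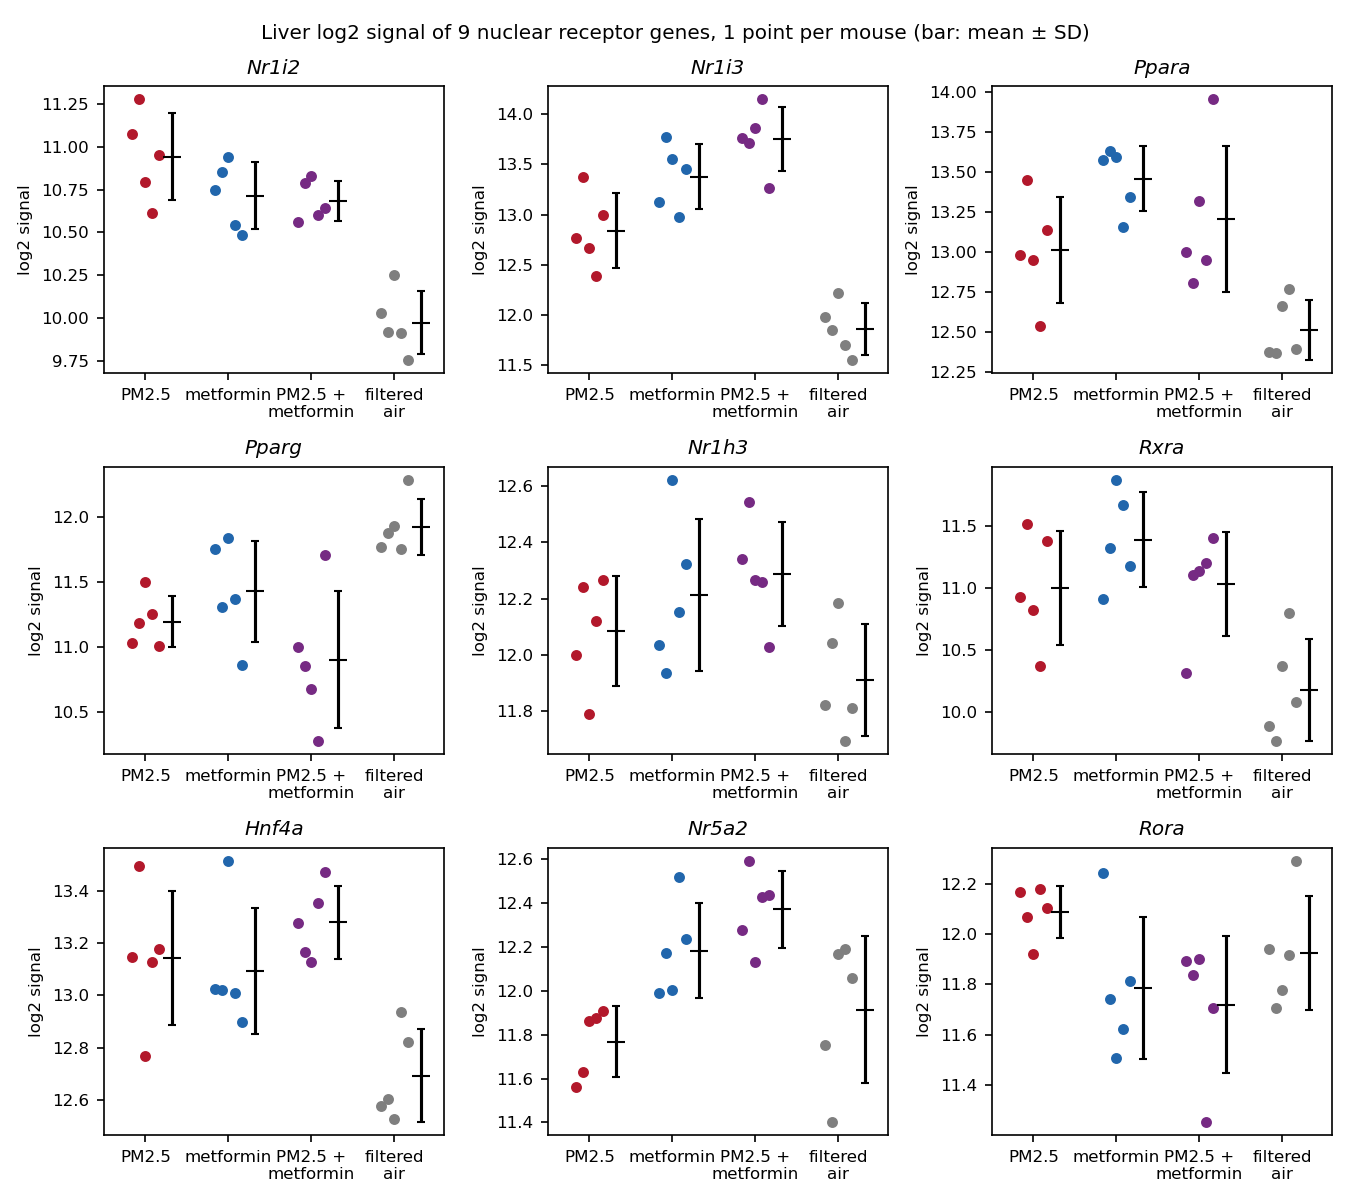
Log2 signal of the 9 receptor genes, 1 point per mouse, with the mean and SD of each group of 5 as a bar to its right; each panel has its own log2 axis, which does not start at 0. For Nr1i2 and Nr1i3 every mouse of the 3 treated groups lay above every filtered-air mouse, and for Pparg all PM2.5 and combined mice lay below them.

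**Figure D3:**
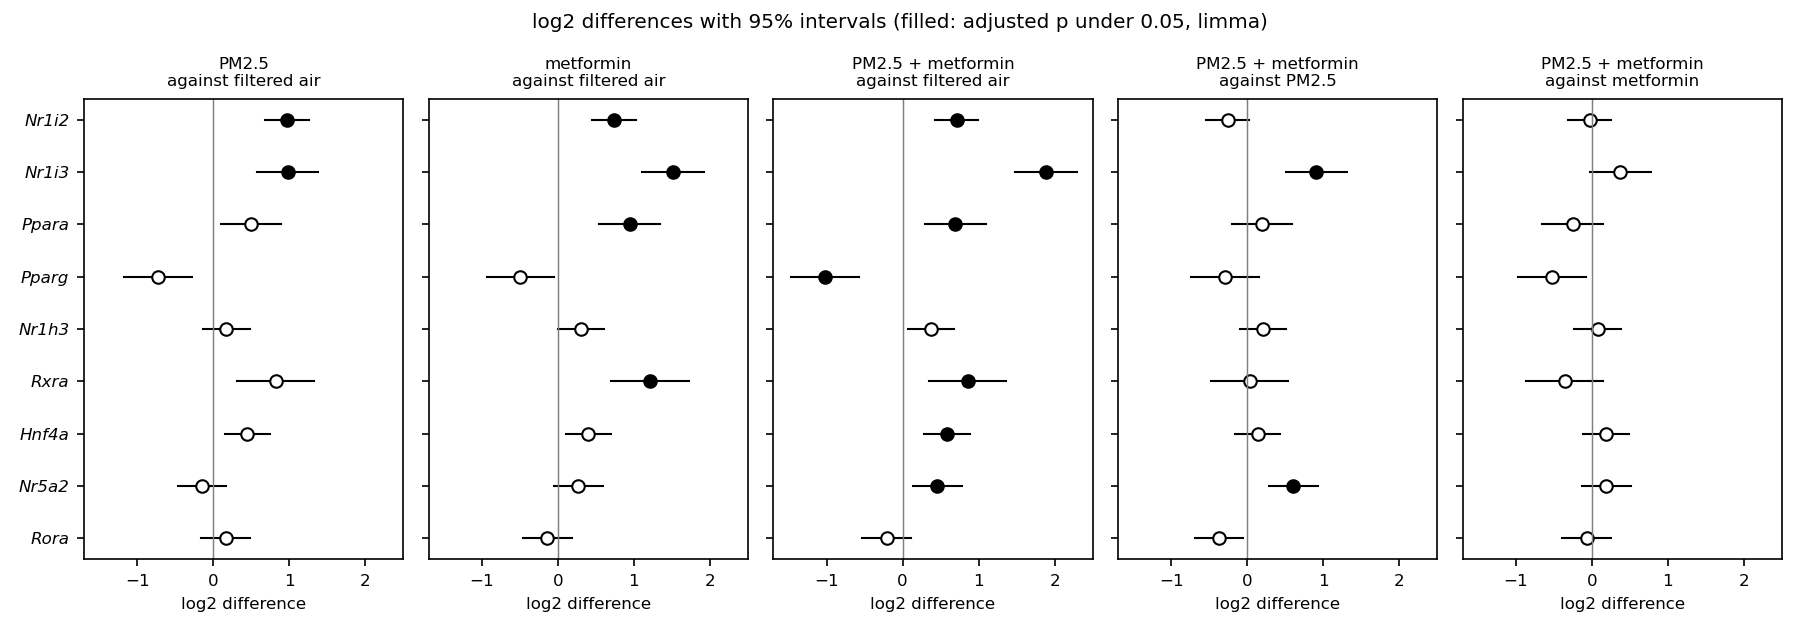
Log2 differences of the 9 receptors in 5 comparisons with 95% intervals from limma; filled points had an adjusted p under 0.05 over all genes tested. Filled points number 2, 4, 7, 2 and 0 from the left panel to the right.

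Nr1i3 encodes CAR, which turns on drug-metabolising enzymes and transporters and is abundant in hepatocytes. Its log2 signals were 12.77, 13.38, 12.66, 12.39 and 13.00 in PM2.5 mice and 13.13, 13.77, 13.55, 12.97 and 13.46 in metformin mice. They were 13.76, 13.71, 13.86, 14.15 and 13.27 in combined mice, against 11.98, 11.85, 12.22, 11.70 and 11.55 in filtered-air mice. The lowest treated mouse, a PM2.5 mouse at 12.39, thus lay above the highest filtered-air mouse at 12.22. The difference from filtered air was 0.98 ± 0.20 in the PM2.5 group (1.97-fold, adjusted p = 0.00651), 1.51 ± 0.20 in the metformin group (2.86-fold, adjusted p = 0.000134) and 1.89 ± 0.20 in the combined group (3.7-fold, adjusted p = 3.23e-06). Nr1i3 was also higher in the combined group than in the PM2.5 group, by 0.91 ± 0.20 (adjusted p = 0.00587), although combined mouse 5 overlapped the PM2.5 mice. Without combined mice 2 and 4 that difference was 0.79 with an adjusted p of 0.0738, past the threshold no longer, whereas the difference from filtered air was 1.77 (adjusted p = 0.000135). With the negative-control median of each array as a covariate, it was 0.66 against PM2.5 (adjusted p = 0.181). Between the combined and the metformin group it was 0.37, with a 95% interval from -0.03 to 0.78 (adjusted p = 0.200). Among combined mice, mouse 5 had the lowest Nr1i3 and the highest Kupffer sum, and the part of those cells in the result was not tested.

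Nr1i2 encodes PXR, the receptor of many drugs and of bile acids, whose best known target is the drug-oxidising enzyme Cyp3a11. Its values were 11.08, 11.28, 10.79, 10.61 and 10.95 in PM2.5 mice and 10.75, 10.85, 10.94, 10.54 and 10.48 in metformin mice. They were 10.56, 10.79, 10.83, 10.60 and 10.64 in combined mice, against 10.03, 9.92, 10.25, 9.91 and 9.76 in filtered-air mice. The 3 treated groups overlapped each other and none overlapped filtered air. Nr1i2 rose by 0.97 ± 0.14 in the PM2.5 group (1.96-fold, adjusted p = 0.000785), by 0.74 ± 0.14 in the metformin group (1.67-fold, adjusted p = 0.00483) and by 0.71 ± 0.14 in the combined group (1.64-fold, adjusted p = 0.00055). The combined group did not pass the test against either treatment alone, at -0.26 ± 0.14 against PM2.5 (95% interval -0.55 to 0.03) and -0.03 ± 0.14 against metformin (95% interval -0.32 to 0.26).

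The interaction, the metformin difference in mice with PM2.5 less that in mice taken to be without it, was -0.998 ± 0.20 for Nr1i2 (adjusted p = 0.0356). Metformin went with a difference of -0.26 under PM2.5, against 0.74 between the metformin and filtered-air groups. Nr1i2 was the 1 receptor of 9 that passed this test, with 0.186% of all genes passing and 0.0253%, or 3 genes, passing as lower. The call was lost in 9 of the 20 fits that each left out 1 mouse, where the interaction stayed between -1.08 and -0.91. It was lost too without combined mice 2 and 4, at -1.004 (adjusted p = 0.0698). Without combined mouse 5 the interaction of Nr1i2 was -0.99 (adjusted p = 0.0156), and 2.44% of all genes passed. Rxra at -1.18 ± 0.35 (adjusted p = 0.147) and Ppara at -0.75 ± 0.27 (adjusted p = 0.234) did not pass. Without combined mouse 5 the Ppara interaction was -0.94 and passed (adjusted p = 0.0336).

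RefSeq (build GRCm38.p6) lists 1 promoter for each of these genes, shown because they are the receptors higher in all 3 treated groups. Each run covers 250 bases before to 50 bases after the start of the transcript. Nr1i3 lies at chr1:171213720-171214019 on the plus strand and Nr1i2 at chr16:38294775-38295074 on the minus strand, and capitals mark a motif match.
Nr1i3: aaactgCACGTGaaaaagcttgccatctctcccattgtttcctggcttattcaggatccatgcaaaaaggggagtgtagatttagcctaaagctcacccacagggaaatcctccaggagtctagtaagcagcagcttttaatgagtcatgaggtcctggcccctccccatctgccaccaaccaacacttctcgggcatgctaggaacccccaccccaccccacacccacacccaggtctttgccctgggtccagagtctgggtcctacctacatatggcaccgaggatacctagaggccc
Nr1i2: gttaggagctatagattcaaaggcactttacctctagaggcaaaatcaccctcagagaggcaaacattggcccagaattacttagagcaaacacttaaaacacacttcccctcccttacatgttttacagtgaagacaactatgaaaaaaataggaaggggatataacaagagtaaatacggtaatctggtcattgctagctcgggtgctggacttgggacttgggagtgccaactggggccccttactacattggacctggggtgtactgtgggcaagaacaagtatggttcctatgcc
Both strands were searched for the nuclear receptor hexamer AGGTCA, present in 16.3% of all 32851 RefSeq promoters of the same length. Direct repeats of it spaced by 1 base (AGGTCANAGGTCA, in 0.0396%) and by 4 bases (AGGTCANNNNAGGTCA, in 0.0152%), the extended hexamer TCAAGGTCA (0.423%) and the ROR element ANNTAGGTCA (0.7%) all contain that hexamer. The HNF4A motif CAAAGTCCA (0.475%) and the E-box CACGTG (7.15%), the element of the clock proteins, were searched too. In the Nr1i3 promoter the E-box was the 1 match, and the Nr1i2 promoter held no match to any of these letters. A match is a description of the sequence and not a binding site.

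Rxra encodes the partner with which CAR, PXR, the PPARs and LXRs bind DNA. Its values were 10.93, 11.52, 10.82, 10.37 and 11.38 in PM2.5 mice and 10.91, 11.32, 11.87, 11.67 and 11.18 in metformin mice. They were 10.32, 11.10, 11.14, 11.20 and 11.41 in combined mice, against 9.89, 9.77, 10.37, 10.80 and 10.08 in filtered-air mice. All metformin mice lay above all filtered-air mice, as for 3.18% of all genes tested. The filtered-air range held 1 PM2.5 mouse and 1 combined mouse. Rxra rose by 1.21 ± 0.25 with metformin (2.32-fold, adjusted p = 0.00904) and by 0.85 ± 0.25 in the combined group (1.81-fold, adjusted p = 0.00981). The PM2.5 difference was 0.82 ± 0.25 (adjusted p = 0.0519). Without combined mice 2 and 4 the combined difference was 0.78 (adjusted p = 0.0635), and with the negative-control covariate it was 0.64 (adjusted p = 0.210). Among the 9 receptors Rxra had the widest spread within groups, with a pooled SD of 0.42. The second of its 2 RefSeq promoters is shown because it held the AGGTCA hexamer on each strand (TGACCT is the hexamer on the other strand); the first held no match. It lies at chr2:27709042-27709341 on the plus strand.
Rxra: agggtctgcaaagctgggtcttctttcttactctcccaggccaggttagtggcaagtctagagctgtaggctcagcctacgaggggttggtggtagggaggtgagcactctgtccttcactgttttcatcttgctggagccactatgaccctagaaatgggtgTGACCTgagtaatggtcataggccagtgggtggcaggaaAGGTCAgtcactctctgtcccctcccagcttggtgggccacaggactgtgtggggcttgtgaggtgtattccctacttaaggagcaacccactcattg

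Ppara encodes the receptor that turns on fatty acid oxidation. Its values were 12.98, 13.45, 12.95, 12.54 and 13.14 in PM2.5 mice and 13.57, 13.63, 13.60, 13.15 and 13.34 in metformin mice. They were 13.00, 12.80, 13.32, 12.95 and 13.95 in combined mice, against 12.37, 12.37, 12.67, 12.77 and 12.39 in filtered-air mice. Metformin and combined mice all lay above the filtered-air range, as for 3.18% and 11.8% of all genes tested. Of 5 PM2.5 mice, 4 did. Ppara rose by 0.94 ± 0.19 with metformin (1.92-fold, adjusted p = 0.00975) and by 0.69 ± 0.19 in the combined group (1.62-fold, adjusted p = 0.00823). The PM2.5 difference of 0.50 ± 0.19 did not pass (adjusted p = 0.128). Combined mouse 5, at 13.95, had the highest value of all 20 mice, and without it the combined difference was 0.50, the lowest of the fits that each left out 1 mouse.

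Pparg, the fat-storing PPAR, fell in the combined group. Its values were 11.03, 11.19, 11.50, 11.26 and 11.01 in PM2.5 mice and 11.76, 11.31, 11.84, 11.38 and 10.87 in metformin mice. They were 11.00, 10.86, 10.68, 10.28 and 11.71 in combined mice, against 11.77, 11.88, 11.93, 11.76 and 12.29 in filtered-air mice. All PM2.5 and all combined mice lay below the filtered-air range, as for 3.39% and 9.03% of all genes tested. Combined mouse 5 was nearest to that range, at 11.71. Pparg fell by 1.02 ± 0.21 in the combined group (2.03-fold lower, adjusted p = 0.00104). With the negative-control covariate the difference was -0.78 and did not pass (adjusted p = 0.0749). The differences of -0.73 ± 0.21 in the PM2.5 group (adjusted p = 0.0504) and -0.49 ± 0.21 in the metformin group (adjusted p = 0.211) did not pass. Combined mouse 5 was also the combined mouse with the highest Kupffer sum, and the part of those cells in the Pparg difference was not tested. Without that mouse the combined difference was -1.22. Of 5 adipocyte markers listed, 4 had a probe set, and Adipoq, Plin1 and Lep, which define fat cells, averaged at or below the negative-control median of 4.49. The fourth, Retn, fell in the combined group. The summed adipocyte signal was 5.57 to 7.05 in PM2.5, 5.31 to 6.12 in metformin and 5.40 to 5.83 in combined mice, against 5.71 to 8.35 in filtered-air mice.

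RefSeq gives 3 promoters for Pparg, of which the first 2 held the hexamer AGGTCA and the third no match. The second, at chr6:115362099-115362398 on the plus strand, is shown because its hexamer, in capitals, starts 9 bases before the start of the transcript.
Pparg: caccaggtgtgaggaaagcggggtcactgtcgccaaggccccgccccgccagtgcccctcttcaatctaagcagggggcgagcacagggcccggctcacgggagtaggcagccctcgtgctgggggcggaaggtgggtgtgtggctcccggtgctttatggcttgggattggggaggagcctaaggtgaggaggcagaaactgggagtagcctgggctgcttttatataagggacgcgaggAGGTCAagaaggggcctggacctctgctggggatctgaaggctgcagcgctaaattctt

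Nr1h3 encodes LXRalpha, which turns on fatty acid synthesis and cholesterol export. Its values were 12.00, 12.24, 11.79, 12.12 and 12.27 in PM2.5 mice and 12.04, 11.93, 12.62, 12.15 and 12.32 in metformin mice. They were 12.34, 12.54, 12.26, 12.26 and 12.03 in combined mice, against 11.82, 12.04, 12.18, 11.69 and 11.81 in filtered-air mice. Every group overlapped filtered air. No comparison passed, and the combined difference of 0.38 ± 0.15 (adjusted p = 0.0505) was nearest to the threshold. It passed in 8 of 30 alternative fits, among them the one without combined mouse 5 (0.44, adjusted p = 0.0275). Over the 30 it ran from 0.16 to 0.45, with adjusted p up to 0.622.

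Hnf4a encodes the receptor that keeps hepatocyte genes on. Its values were 13.15, 13.49, 12.77, 13.13 and 13.18 in PM2.5 mice and 13.03, 13.02, 13.51, 13.01 and 12.90 in metformin mice. They were 13.28, 13.17, 13.13, 13.35 and 13.47 in combined mice, against 12.58, 12.60, 12.53, 12.94 and 12.82 in filtered-air mice. All combined mice lay above the filtered-air range, as for 11.8% of all genes tested. So did 4 of 5 PM2.5 and 4 of 5 metformin mice. Hnf4a rose by 0.59 ± 0.14 in the combined group (1.5-fold, adjusted p = 0.00352). That call too was lost with the negative-control covariate, at 0.55 (adjusted p = 0.0729). It did not pass in the PM2.5 group at 0.45 ± 0.14 (adjusted p = 0.0683) or in the metformin group at 0.40 ± 0.14 (adjusted p = 0.132).

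Nr5a2 encodes LRH-1, an activator of bile acid synthesis genes and of the cholesterol receptor Scarb1. Its values were 11.56, 11.63, 11.86, 11.88 and 11.91 in PM2.5 mice and 11.99, 12.17, 12.00, 12.52 and 12.24 in metformin mice. They were 12.28, 12.59, 12.13, 12.43 and 12.44 in combined mice, against 11.75, 11.40, 12.17, 12.19 and 12.06 in filtered-air mice. All combined mice lay above all PM2.5 mice, as for 4.44% of all genes tested, while the filtered-air values overlapped both groups. Nr5a2 was higher in the combined than in the PM2.5 group by 0.60 ± 0.15 (1.52-fold, adjusted p = 0.0153), and than in the filtered-air group by 0.46 ± 0.15 (adjusted p = 0.0253). The second call was lost without filtered-air mouse 1 or 2 or combined mouse 2 or 4, with differences of 0.42, 0.33, 0.40 and 0.44. Without combined mice 2 and 4 together both were lost, at 0.51 against PM2.5 (adjusted p = 0.155) and 0.37 against filtered air (adjusted p = 0.148). The negative-control covariate gave 0.53 (adjusted p = 0.206) and 0.37 (adjusted p = 0.252), array weights gave 0.51 (adjusted p = 0.0521) and 0.40 (adjusted p = 0.0541), and a fit of only the arrays compared lost the call against filtered air (adjusted p = 0.0597).

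Rora encodes RORalpha, which activates the clock gene Bmal1 (Arntl in the annotation). Its values were 12.17, 12.07, 11.92, 12.18 and 12.10 in PM2.5 mice and 12.24, 11.74, 11.51, 11.62 and 11.82 in metformin mice. They were 11.90, 11.84, 11.90, 11.25 and 11.71 in combined mice, against 11.94, 11.71, 11.78, 11.92 and 12.29 in filtered-air mice. All combined mice lay below all PM2.5 mice, as for 1.9% of all genes tested. The difference of -0.37 ± 0.15 did not pass (adjusted p = 0.124), nor did any other comparison. Of 3 probe sets for Rora, a second, with a mean of 10.95 and a correlation of 0.24 to the first over 20 arrays, gave another picture. It averaged 11.32 ± 0.32 in combined mice, against 10.82 ± 0.10 in filtered-air mice (SD), a difference of 0.50 (limma over 11887 probe sets, adjusted p = 0.0199). The third averaged 4.74, near the negative-control median of 4.49. The probe sets of Rora thus disagreed for the combined group, and no direction is given.

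Against the PM2.5 group, the combined group had 2 receptors higher, Nr1i3 and Nr5a2, and none lower, where 11.7% of all genes changed. Without combined mice 2 and 4 none passed, where 1.74% of all genes did. Against the metformin group, 0 receptors of 9 passed in limma, where 16.3% of all genes changed and 6.63% were lower, and 1, Pparg, had an unadjusted p under 0.05. Its difference between the combined and the metformin group was -0.52 ± 0.21 (adjusted p = 0.0972). It passed without metformin mouse 5 (difference -0.66, adjusted p = 0.0492) or combined mouse 5 (difference -0.72, adjusted p = 0.0101).

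Pairs of receptors varied together to different degrees, which is given as a description over the 20 mice. After each group's mean was taken away, the pair Nr1i2 and Nr1i3 had the highest correlation of the 36 pairs, at 0.67, followed by Ppara and Rxra at 0.56 and Rxra and Hnf4a at 0.54. Pparg and Nr1i3 had the lowest, at -0.51. All values of a mouse come from 1 array, so these pairs share its RNA quality and cell makeup.

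**Figure D4:**
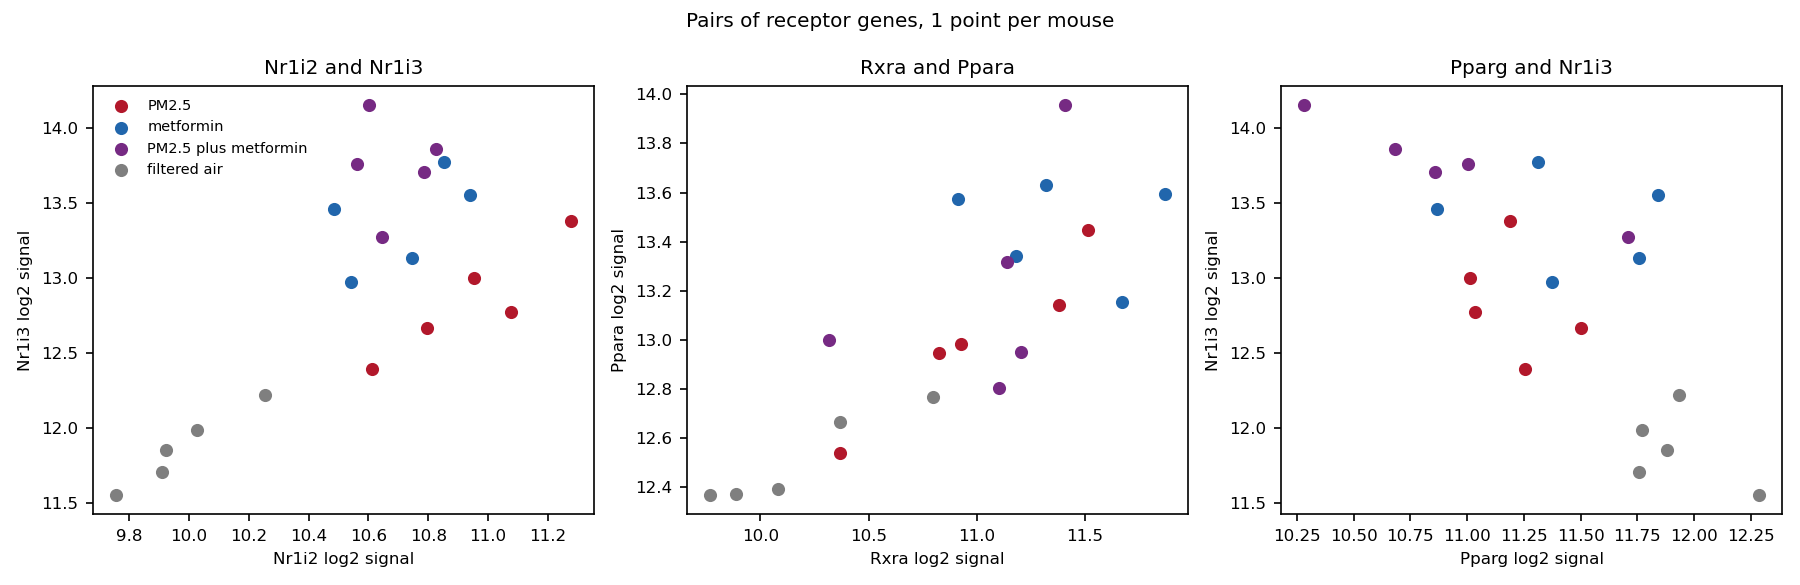
Log2 signal of 1 receptor against another, 1 point per mouse, coloured by group, for the pairs Nr1i2 and Nr1i3, Rxra and Ppara, and Pparg and Nr1i3; the axes do not start at 0. The 5 filtered-air mice lie lowest in Nr1i2 and in Nr1i3 and toward the high end of Pparg.

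The genes most like each receptor that passed were taken by Pearson correlation over the 20 arrays. They came from the genes tested, leaving out the receptors themselves and predicted or provisional gene names. Nr1i3 was most like Il15ra (0.924), Cyp2e1 (0.920) and Slc27a2 (0.911), a subunit of the interleukin 15 receptor, an ethanol-oxidising cytochrome and a fatty acid transport protein. Nr1i2 was most like Aifm2 (0.874), Zfp746 (0.863) and Kctd18 (0.847). Ppara and Rxra had the same leading gene, Npc1, which moves cholesterol out of lysosomes, at 0.880 and 0.888. Creb3l3, a liver transcription factor of lipid metabolism, followed for Ppara at 0.861, and Arhgef12 at 0.858, while Tgfbrap1 (0.883) and Gna12 (0.880) followed for Rxra. Pparg was most like Ppcs (0.873), an enzyme of coenzyme A synthesis, Primpol (0.855) and Isg20 (0.841). Hnf4a was most like Tmem30b (0.875), Cpt1a (0.858) and Oplah (0.838), and Nr5a2 was most like Fgd6 (0.838), Ubap2l (0.804) and Dido1 (0.798). After removal of group means these 21 correlations ranged from 0.49 to 0.81, so part of each was the difference between groups.

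Some targets of CAR and PXR passed the test. Of 21 tested, 2 rose in the PM2.5 group, where 2.67% of all genes rose, and 3 in the metformin group, where 1.26% rose. In the combined group 4 rose, a share like the 18.7% of all genes that rose there. The combined group also had 2 lower, where 16.2% of all genes fell. Abcc3, a transporter that exports conjugated drugs and bile acids, rose in each group and averaged 14.77 ± 0.38 in PM2.5, 14.50 ± 0.05 in metformin and 15.31 ± 0.17 in combined mice, against 13.86 ± 0.32 in filtered-air mice (SD). Its differences were 0.92 ± 0.17 (adjusted p = 0.00351), 0.64 ± 0.17 (adjusted p = 0.0392) and 1.45 ± 0.17 (adjusted p = 8.96e-06). Alas1, the first enzyme of haem synthesis, rose too, by 0.88, 1.15 and 1.38. Cyp3a13, a drug-oxidising cytochrome, rose by 0.94 ± 0.15 with metformin (adjusted p = 0.00103) and by 0.64 in the combined group.

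The classic targets of the pair did not pass. Cyp2b10, the usual marker of CAR activity, averaged 15.50 ± 0.12 in PM2.5, 15.32 ± 0.41 in metformin and 15.40 ± 0.54 in combined mice, against 15.16 ± 0.20 in filtered-air mice (SD). Its lowest adjusted p against filtered air was 0.357, in the PM2.5 group. Those 5 mice all lay above the filtered-air range, as for 3.55% of all genes tested. Cyp3a11, the usual marker of PXR activity, averaged between 18.45 and 18.53 in all 4 groups, near the highest value on any array, 19.03. The median difference of the 21 targets was 0.16 in PM2.5, 0.02 in metformin and 0.08 in combined mice, against 0.02, 0.00 and 0.01 over all genes.

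Some PPARalpha targets rose in each treated group. Of 31 tested, 6 rose in the PM2.5 group, where 2.67% of all genes rose, 3 in the metformin group, where 1.26% rose, and 9 in the combined group, where 18.7% rose. None fell against filtered air, but without combined mouse 5 the combined group had 8 higher and 5 lower, where 36.6% of all genes changed. Cpt1a, which brings fatty acids into mitochondria, rose by 1.08 ± 0.23 with PM2.5 (adjusted p = 0.00991), by 1.38 ± 0.23 with metformin (adjusted p = 0.0019) and by 1.86 ± 0.23 in the combined group (adjusted p = 1.32e-05). Angptl4, an inhibitor of lipoprotein lipase, rose by 2.46 ± 0.38 with PM2.5 (adjusted p = 0.00138) and by 1.94 ± 0.38 with metformin (adjusted p = 0.00708). In the combined group Angptl4 rose by 1.60 (adjusted p = 0.00275). It averaged 14.59 ± 0.17 in PM2.5, 14.08 ± 0.84 in metformin and 13.73 ± 0.80 in combined mice, against 12.13 ± 0.68 in filtered-air mice (SD), and its interaction was -2.80 ± 0.54 (adjusted p = 0.0300), or -2.52 without combined mice 2 and 4 (adjusted p = 0.0621). Slc27a1 and Acadl, a fatty acid transporter and a mitochondrial oxidation enzyme, were among those that rose in the combined group, by 1.23 and 0.78. Cyp4a14, a fatty acid hydroxylase and a usual marker of PPARalpha activity, did not pass, at 18.42 ± 0.15 in PM2.5, 18.51 ± 0.11 in metformin and 18.27 ± 0.13 in combined mice, against 18.23 ± 0.15 in filtered-air mice (SD). These Cyp4a14 means lie near the highest value on any array, 19.03. The median over the 31 targets was 0.26 in PM2.5, 0.28 in metformin and 0.08 in combined mice. The combined median was 0.26 without combined mice 2 and 4 and -0.02 without combined mouse 5. Pdk4, which blocks glucose oxidation, was lower in the combined than in the PM2.5 group, with a difference of -2.66 ± 0.41 (adjusted p = 0.000742). Against that group 4.73% of all genes were lower.

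Of 10 PPARgamma targets tested, 1 rose in the PM2.5 group, where 2.67% of all genes rose, and none passed in the metformin group, where 3.15% changed. In the combined group 1 rose and 2 fell, where 34.9% of all genes changed. The medians of the 10 were 0.39, 0.07 and -0.11 in these groups. The combined median was 0.18 without combined mice 2 and 4, so its sign turned, and -0.33 without combined mouse 5. That last fit gave 1 higher and 4 lower, where 36.6% of all genes changed. The gene that rose was Plin4, a lipid droplet protein, by 2.25 ± 0.37 with PM2.5 (adjusted p = 0.00196) and by 3.09 ± 0.37 in the combined group (adjusted p = 1.08e-05). Its filtered-air mean of 4.56 lies at the negative-control level, so the size of the rise rests on a background value. Fabp4, a fatty acid binding protein of adipocytes and macrophages, fell by 0.98 ± 0.24 in the combined group (adjusted p = 0.00364), and so did Mogat1, a triglyceride synthesis enzyme, by 1.06 ± 0.32 (adjusted p = 0.0138). The Kupffer sums of combined mice 1 to 4, between 11.60 and 13.35, lay below the filtered-air range as well, and their part in these falls was not tested. With combined mice 2 and 4 left out, both falls were lost, at -0.67 for Fabp4 (adjusted p = 0.0662) and -0.71 for Mogat1 (adjusted p = 0.114). The lipid droplet proteins Cidea and Cidec varied widely within groups, with SDs from 0.93 to 1.98, and passed in no comparison.

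Among 15 LXR targets tested, 1 rose and 1 fell with PM2.5, where 2.5% of all genes fell, 2 fell with metformin, where 1.89% fell, and 2 rose and 3 fell in the combined group, where 34.9% of all genes changed. Their medians were 0.09, -0.11 and -0.03. Without combined mouse 5 the combined group had 2 higher and 5 lower, where 36.6% of all genes changed, and a median of -0.19. Without combined mice 2 and 4 the median was -0.01. Fasn, fatty acid synthase, averaged 13.54 ± 1.02 in PM2.5, 11.68 ± 1.08 in metformin and 13.11 ± 0.61 in combined mice, against 15.43 ± 0.28 in filtered-air mice (SD). It fell in each, with differences of -1.89 ± 0.45 (adjusted p = 0.018), -3.75 ± 0.45 (adjusted p = 8.17e-05) and -2.32 ± 0.45 (adjusted p = 0.000541). Its interaction was 3.32 ± 0.64 (adjusted p = 0.0300), or 3.07 without combined mice 2 and 4 (adjusted p = 0.0852). Mlxipl, the carbohydrate-sensing factor ChREBP, fell with metformin by 1.12 ± 0.25 (adjusted p = 0.0173). Mylip, which marks the LDL receptor for degradation, rose with PM2.5 by 1.01 ± 0.23 (adjusted p = 0.015). Abca1, a cholesterol exporter, rose in the combined group by 0.54 and Smpdl3a fell by 0.81. Abcg5, a sterol exporter, did not pass, with differences of 0.17, -0.24 and -0.33 from filtered air. Srebf1, the lipogenic factor under LXR control, was not analysed here.

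**Figure D5:**
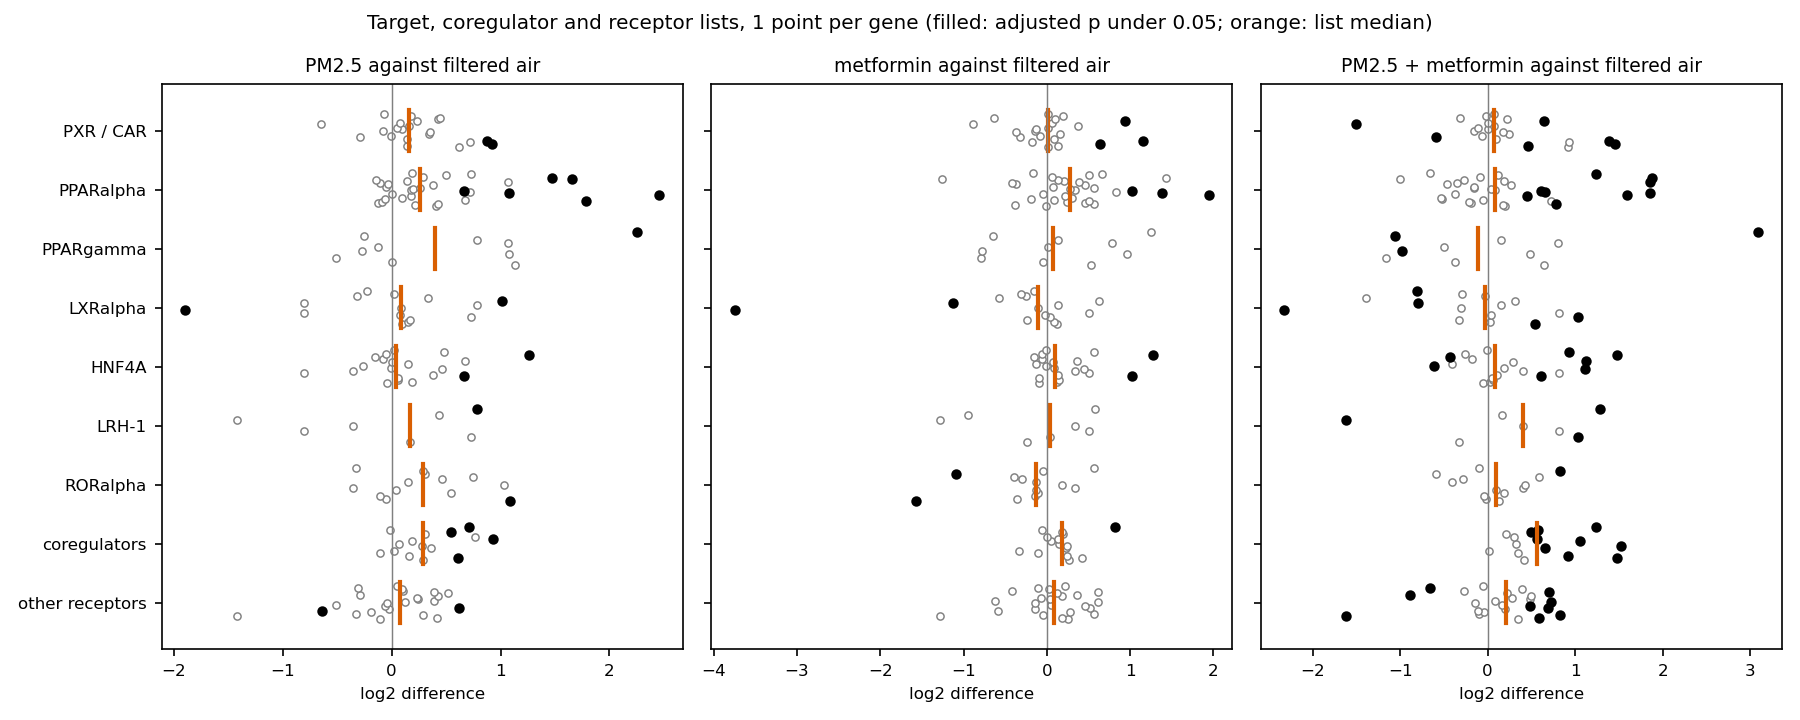
Log2 differences from filtered air for target lists of 7 receptors or receptor pairs, for coregulators and for other nuclear receptors, 1 point per gene tested; filled points had an adjusted p under 0.05, orange bars mark list medians, and each panel has its own axis. All 9 filled coregulator points of the combined group lie to the right of 0, while Fasn is the leftmost point of each panel among the LXRalpha targets.

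Of 20 HNF4A targets, 2 rose with PM2.5 and 2 with metformin, where 2.67% and 1.26% of all genes rose. In the combined group 5 rose and 2 fell, a share like the 34.9% of all genes that changed there, and the medians were 0.04, 0.10 and 0.08. Pck1, the gateway enzyme of glucose synthesis, rose by 1.26 ± 0.20 (adjusted p = 0.00192), 1.27 ± 0.20 (adjusted p = 0.00132) and 1.48 ± 0.20 (adjusted p = 3.24e-05). Creb3l3 rose by 0.66 with PM2.5, by 1.03 with metformin and by 0.61 in the combined group (adjusted p = 0.00519 there). In the combined group F12 and Hpn, a coagulation factor and a membrane protease, rose by 1.12 and 1.13. HNF4A, LRH-1 and LXR share Cyp7a1, the rate-limiting enzyme of bile acid synthesis, which did not pass against filtered air but was higher in the combined than in the PM2.5 group, by 1.61 ± 0.38 (adjusted p = 0.00939). The Cyp7a1 difference was 1.68 without combined mice 2 and 4 and did not pass (adjusted p = 0.0533). Cyp7a1 averaged 15.17 ± 0.67 in PM2.5, 16.48 ± 0.94 in metformin and 16.79 ± 0.55 in combined mice, against 15.98 ± 0.43 in filtered-air mice (SD). Cyp8b1, which sets the kind of bile acid made, did not pass.

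Of 7 LRH-1 targets, 1 rose with PM2.5, where 2.67% of all genes rose, and none passed with metformin, where 3.15% changed. In the combined group 2 rose and 1 fell, where 34.9% of all genes changed. Medians were 0.17 with PM2.5, 0.04 with metformin and 0.40 in the combined group. Scarb1, the HDL receptor, rose by 0.79 ± 0.19 with PM2.5 (adjusted p = 0.0189) and by 1.28 ± 0.19 in the combined group (adjusted p = 5.46e-05). Abcg8, the partner of Abcg5, rose in the combined group by 1.04 ± 0.29 (adjusted p = 0.0087). The member that fell was Nr0b2 (SHP), a receptor that lacks a DNA-binding domain and represses others, by 1.62 ± 0.51 in the combined group (adjusted p = 0.0163).

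RORalpha targets include the clock genes. Of 13 tested, 1 rose with PM2.5, where 2.67% of all genes rose, 2 fell with metformin, where 1.89% fell, and 1 rose in the combined group, where 18.7% rose. The medians were 0.29, -0.13 and 0.09, and the combined median was 0.14 without combined mice 2 and 4 and 0.04 without combined mouse 5. Arntl averaged 10.25 ± 0.46 in PM2.5, 7.59 ± 0.56 in metformin and 9.30 ± 0.46 in combined mice, against 9.17 ± 0.29 in filtered-air mice (SD). It rose by 1.09 ± 0.26 with PM2.5 (adjusted p = 0.0196) and fell by 1.57 ± 0.26 with metformin (adjusted p = 0.0019). Npas2, another clock factor, passed as lower with metformin (adjusted p = 0.0379), but its mean of 4.42 in metformin mice, against 5.52 in filtered-air mice, lay at the negative-control level, so the size of the fall was not measured. Nr1d1 (REV-ERBalpha), a clock repressor, rose in the combined group by 0.83 ± 0.25 (adjusted p = 0.012), a call lost without combined mice 2 and 4, at 0.58 (adjusted p = 0.136). Clock genes follow the hour of the day, whose part in these differences was not tested.

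Although Esrra itself was not analysed here, 11 of its targets were tested. Of these 1 rose and 1 fell with PM2.5, where 5.17% of all genes changed, none passed with metformin, where 3.15% did, and 2 rose and 3 fell in the combined group, where 34.9% did. The medians were -0.08, -0.14 and -0.36. Without combined mice 2 and 4 the combined group had 1 higher and 2 lower, where 21.5% of all genes changed, and a median of -0.09. Without combined mouse 5 it had 2 higher and 5 lower, where 36.6% changed. Sdhd, a subunit of respiratory complex II, fell with PM2.5 by 0.46 ± 0.13 (adjusted p = 0.0442) and in the combined group by 0.93 ± 0.13 (adjusted p = 3.83e-05). Pdk4 rose with PM2.5 by 1.66 ± 0.41 (adjusted p = 0.0211), and Gabpa, a regulator of mitochondrial genes, rose in the combined group by 0.83 ± 0.15 (adjusted p = 0.000281).

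Coregulators, the proteins that receptors recruit to acetylate chromatin or contact the transcription machinery, were tested for 15 genes. Of these, 4 rose with PM2.5, where 2.67% of all genes rose, 1 with metformin, where 1.26% rose, and 9 in the combined group, where 18.7% rose. None fell, and 6 of the 15 did not pass in the combined group. The median differences were 0.29 with PM2.5, 0.18 with metformin and 0.57 in the combined group, against 0.02, 0.00 and 0.01 over all genes. Ncoa1, a steroid receptor coactivator, averaged 8.59 ± 0.42 in PM2.5, 8.56 ± 0.32 in metformin and 9.84 ± 0.46 in combined mice, against 8.32 ± 0.23 in filtered-air mice (SD). The combined difference was 1.52 ± 0.22 (adjusted p = 4.86e-05). Crebbp, a histone acetyltransferase, rose by 1.47 ± 0.16 in the combined group (adjusted p = 6.44e-06), and Tbl1xr1, a subunit of the corepressor complex, by 1.24 ± 0.18 (adjusted p = 4.5e-05). Nrip1, a corepressor of fat and glucose genes, led with PM2.5 at 0.93 ± 0.14 (adjusted p = 0.00138). Against PM2.5 alone 6 coregulators were higher and none lower, where 6.95% of all genes were higher, and against metformin alone 8 were higher, where 9.69% were. Leaving out combined mice 2 and 4 gave 2 and 3 higher, where 1.74% and 4.21% of all genes changed. Against filtered air it gave 8, where 21.5% changed. Ppargc1a, the coactivator PGC-1alpha, did not pass, at 11.91 ± 0.47 in PM2.5, 11.15 ± 0.75 in metformin and 11.45 ± 0.51 in combined mice, against 11.15 ± 0.65 in filtered-air mice (SD).

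Of 39 other nuclear receptors listed, 34 had a probe set and 24 were tested. With PM2.5, Nr2c2 (TR4) rose by 0.62 and Nr1h5, the FXR-beta gene, passed as lower, with a mean of 4.29 in PM2.5 mice at the negative-control level, against 4.93 in filtered-air mice; 5.17% of all genes changed there. None passed with metformin, where 3.15% of all genes did, and 6 rose and 3 fell in the combined group, a share close to the 34.9% of all genes. The receptors with the lowest p there were Thrb, the thyroid hormone receptor of liver, which fell by 0.65 ± 0.15 (adjusted p = 0.00172), Nr2c2, which rose by 0.69 ± 0.17 (adjusted p = 0.00291), and Nr1d1. With combined mice 2 and 4 left out, 2 rose and 2 fell, where 21.5% of all genes changed, the median was 0.14 and Nr1d1 was not among them. The median difference of these 24 receptors from filtered air was 0.08 with PM2.5, 0.09 with metformin and 0.21 in the combined group, against 0.45, 0.40 and 0.59 for the 9 metabolic receptors. The difference between the lists was not tested, and both were chosen with earlier results of these data known.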

How the data were processed

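The deposited values are the authors' log2 signals of probe sets, computed in Affymetrix Expression Console per the submitters' processing notes. The version, summary method and normalization are not given in the sources used here. The series text names another array than the one whose identifiers the table holds, so genes came from the annotation of those identifiers. Of 28846 probe sets, 6640 were controls, 19572 had 1 gene symbol, 0 had several and 2634 had none. Genes whose mean was at or below the 40th percentile (4.05) were left out. That level lies below the negative-control median, so genes at background could be tested.

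Group means were compared with limma 3.58.1 in R 4.3.3 (lmFit and eBayes, two-sided, prior degrees of freedom 5.68, residual 16) in 1 model of 20 arrays, with Benjamini-Hochberg adjustment over 11844 genes. The code was tested on simulated data. The number of arrays limits the precision, and p-values measure the spread between mice. No 2 arrays held identical values. Mice are numbered in deposited order, which pairs none.

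The members and gene lists were chosen with earlier results of these data known. Named genes were all receptors, up to 3 with the lowest p that passed per list and comparison, 14 known targets whatever they did, and the 3 genes most correlated with each receptor that passed. Receptors and predicted or provisional names were left out of those correlations. Promoters are RefSeq's. Alternatives were filters, scalings, array weights, a trended fit, a negative-control covariate, separate fits, the mean over probe sets and leaving out mice. Leaving out combined mice 2 and 4 together was chosen after seeing the data.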

Additional observations from a re-analysis of the deposited data

Results flagged for a closer look

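Each group of 5 mice was checked for 1 mouse lying far from the other 4, in 36 groups of receptor values, and 2 such values were found, where chance flags about 1 in 20 groups. Rxra in combined mouse 1 was 10.32, against 11.10 to 11.41 in the other 4 combined mice. Hnf4a in metformin mouse 3 was 13.51, against 12.90 to 13.03 in the other 4 metformin mice. The third result is a difference between conditions, the interaction of -0.998 for Nr1i2. Its metformin difference was -0.26 under PM2.5, against 0.74 between the metformin and filtered-air groups.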

How the results depend on the processing

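The rises of Nr1i2 and Nr1i3 against filtered air passed under every alternative run in all 3 treated groups, as did those of Ppara and Rxra with metformin and of Ppara in the combined group. Counts moved more. For PM2.5 against filtered air, receptors called were 6 with array weights and 4 with a filter at the 60th percentile, a trended robust fit or only the arrays compared, where Pparg and Rxra, just short otherwise, passed. Genes called there were 1376 with array weights and 938 without combined mice 2 and 4. For metformin they were 854 with array weights and 147 with the negative-control median as covariate. That covariate left 3 receptors (Nr1i2, Nr1i3 and Ppara) and 1054 genes for the combined group against filtered air, 0 and 79 against PM2.5, 1009 genes against metformin, 44 for the interaction, and 4 receptors and 1598 genes for any difference. Without combined mice 2 and 4 the genes called were 2544 against filtered air, 206 against PM2.5 (0 receptors), 499 against metformin, 10 for the interaction (0 receptors) and 2377 for any difference. Only the arrays compared gave 509 genes against PM2.5 and 1021 against metformin. Array weights gave 1 receptor against PM2.5 and 108 interaction genes. Leaving out 1 mouse at a time, genes called ranged from 208 (without PM2.5 mouse 2) to 759 for PM2.5, from 157 (without metformin mouse 3) to 487 for metformin, from 3394 to 4338 for the combined group against filtered air, from 637 (without combined mouse 4) to 2143 (without combined mouse 5) against PM2.5, from 1138 (without combined mouse 4) to 2407 against metformin, from 7 to 289 (without combined mouse 5) for the interaction and from 2961 to 4247 for any difference. PM2.5 gene counts moved by over 1.5 times also on leaving out PM2.5 mouse 5 (248) and filtered-air mice 1, 2 and 3 (268, 377 and 372). Metformin counts did so without metformin mouse 4 (248) or filtered-air mouse 1, 2, 3 or 5 (161, 171, 216 and 194), and those against PM2.5 without PM2.5 mouse 3 or 4 (844 and 772) or combined mouse 2 (753). Receptors called ranged from 2 to 4, 4 to 4, 6 to 8, 2 to 2, 0 to 1, 0 to 2 and 6 to 7 for the same 7 tests. Directions turned for small differences that passed in no setting. Rora in the combined group became 0.18 against filtered air, 0.11 against PM2.5 and 0.28 against metformin, and its interaction 0.21, with the mean of its probe sets. Against metformin it was 0.025 with array weights, 0.0012 with the covariate and 0.048 without combined mice 2 and 4. Rxra against PM2.5 was -0.075 with array weights, -0.15 with the covariate and -0.048 without these mice. Nr1h3 against metformin was -0.033 with the covariate and -0.0014 without them, and Nr1i2 against metformin 0.018 with array weights. Leaving out 1 mouse, these ran from -0.14 to 0.049 for Rora, from -0.13 to 0.21 for Rxra and from -0.087 to 0.027 for Nr1i2, and the Nr1h3 interaction from -0.17 to 0.0042. The cause of these changes was not tested. No paired analysis was possible because the labels pair no mice.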

Other observations

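Markers of other cell types were summed by liver as well. Of 8 stellate cell markers tested (9 listed), genes of the vitamin A storing cells, 1 rose and 3 fell in the combined group against filtered air. There 34.9% of all genes changed, and the median difference of the 8 was -0.10. The log2 sums were 15.60 to 16.12 in combined mice, against 16.22 to 16.54 in filtered-air mice. These sums are mostly the signal of 1 gene, Dcn, which averaged 16.15 over all arrays, against 10.50 for Lrat, the next brightest. Markers of lymphocytes, neutrophils and bile duct cells were near background. Of 8 T and NK cell markers, 5 averaged at or below the negative-control median, as did 3 of 3 B cell markers and 5 of 6 neutrophil markers with a probe set. Of 3 bile duct markers tested, 1 rose with PM2.5, where 2.67% of all genes rose, and 1 fell with metformin, where 1.89% fell. In the combined group 1 fell against filtered air, where 16.2% of all genes fell. The sums were 6.83 to 7.16 in combined mice, against 7.10 to 7.54 in filtered-air mice. The 1 red cell marker with a probe set, Alas2, passed in no comparison.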
